A study of Homo sapiens and Mus musculus with 20 samples.

Results

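A set of 1311 binding sites of full-length Satb1 was described that had no counterpart in the peak lists made after either topoisomerase inhibitor. Members were selected on the overlap of called peaks. A site entered the set if its peak in untreated MCF10A cells shared at least 1 bp with a peak of the N-C1 or dHD construct, and shared none with the list after camptothecin and none with the list after ICRF-193. Of the 22877 full-length peaks, 21938 met the construct condition, and the 1311 sites were 5.98% of these. MCF10A, an epithelial line from the human mammary gland, has no native Satb1. All ChIP-seq cells carried Satb1 as a C terminal eGFP fusion, stably integrated by lentivirus under a cumate-inducible promoter, and chromatin was precipitated with an antibody to GFP. dHD is Satb1 without its homeodomain, N-C1 holds the N terminal domain and the CUT1 domain, and cell lines of the different constructs were sorted through the same fluorescence gate. The drug-treated cells expressed full-length Satb1 and received camptothecin or ICRF-193 for 2 h before fixation. The drugs' doses are not given in the labels. Accessibility was taken from ATAC-seq peak lists of native MCF10A cells and of MCF10A cells expressing Satb1. Each condition had a single list, so no difference below carries a test.

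Satb1 is a nuclear protein that binds A/T-rich DNA, best known from thymocytes, where it takes part in the folding of chromatin and in gene regulation. It forms multimers through its N terminal domain and contacts DNA through CUT domains and a homeodomain. Topoisomerase I, the target of camptothecin, and topoisomerase II, the target of ICRF-193, relieve the torsional stress that transcription and replication place on the double helix, and blocking them lets that stress build up.

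The value that chose the members was their absence from both drug lists, and an absent peak is not a measure of lost binding. A peak list hides signal under its threshold, and the drug, the library and the depth of each list cannot be told apart. The full-length list held 22877 peaks, the list after camptothecin 24475 and the list after ICRF-193 37350, so neither drug list was the shorter. Absence after camptothecin was the more frequent, with 18.5% of the 21938 peaks missing from that list against 7.23% missing from the list after ICRF-193. Both drug lists were compared with the same untreated list. Besides the 1311 sites, 2738 peaks were absent after camptothecin only, 276 were absent after ICRF-193 only, and 17613 were kept after both drugs. The kept peaks are the comparison group below. Intervals are at 95%, by the exact Clopper-Pearson method for shares and from the spread across peaks for means. Both cover counting error only and treat peaks as independent. Markers of the labelled cell type were open in native cells: a start site of 10 of 10 epithelial marker genes, KRT5, KRT14, TP63 and CDH1 among them, overlapped an ATAC peak, against 4 of 10 lymphoid marker genes (CD8A, LCK, RAG1 and CD79A).

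The sequences under a few sites are printed as examples. Each window is 200 bp of hg19 at the peak midpoint, written 5′ to 3′ on the plus strand. Capitals mark exact matches to the Satb1 consensus as written for this report, 8 heptamers in 4 reverse-complement pairs: CTAATAA and TTATTAG (pair 1), CTAATAG and CTATTAG (pair 2), CTATTAA and TTAATAG (pair 3), and TTAATAA and TTATTAA (pair 4). Pairs 1 and 2 make up a narrower form of the consensus. The pairs and the narrower form are not classes of the study, which searched for its motif with FIMO. The CHRNA7 and IKZF4 windows belong to sites among the 3 with the largest full-length fold enrichment, the PXDN window to the site with the most matches, the PRRX1 window to the strongest site with no match, and the OOSP1 window to the strongest site at a promoter. The CERKL window is a kept peak, shown because it lies at the median A/T content and match number of the kept peaks of like fold enrichment.
CHRNA7 intron, chr15:32375286-32375485: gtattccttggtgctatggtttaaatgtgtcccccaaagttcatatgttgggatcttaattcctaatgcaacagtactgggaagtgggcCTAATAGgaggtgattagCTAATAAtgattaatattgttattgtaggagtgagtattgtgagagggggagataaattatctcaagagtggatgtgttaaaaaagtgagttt
IKZF4 intron, chr12:56418258-56418457: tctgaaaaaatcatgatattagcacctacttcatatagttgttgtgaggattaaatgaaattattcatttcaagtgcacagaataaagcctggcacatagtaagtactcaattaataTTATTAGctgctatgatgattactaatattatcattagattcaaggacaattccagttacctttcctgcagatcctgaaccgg
PXDN intron, chr2:1710491-1710690: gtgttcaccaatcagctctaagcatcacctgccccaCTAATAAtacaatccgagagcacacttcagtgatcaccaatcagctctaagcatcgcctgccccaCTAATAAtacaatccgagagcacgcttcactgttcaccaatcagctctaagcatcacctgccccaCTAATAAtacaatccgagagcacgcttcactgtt
intergenic near PRRX1, chr1:170728034-170728233: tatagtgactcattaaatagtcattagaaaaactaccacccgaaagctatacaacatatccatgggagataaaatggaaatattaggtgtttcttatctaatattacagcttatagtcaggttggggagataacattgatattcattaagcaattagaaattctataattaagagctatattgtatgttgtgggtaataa
OOSP1 promoter, chr11:59704818-59705017: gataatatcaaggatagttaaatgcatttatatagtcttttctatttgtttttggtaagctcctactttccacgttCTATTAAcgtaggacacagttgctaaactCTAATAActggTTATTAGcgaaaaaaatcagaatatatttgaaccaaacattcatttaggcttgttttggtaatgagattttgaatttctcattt
CERKL intron (kept after both drugs), chr2:182538340-182538539: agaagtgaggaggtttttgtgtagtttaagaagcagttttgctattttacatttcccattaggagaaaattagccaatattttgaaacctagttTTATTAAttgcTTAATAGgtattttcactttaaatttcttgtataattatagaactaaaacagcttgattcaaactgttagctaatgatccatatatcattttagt
The CHRNA7 and IKZF4 windows hold matches of pairs 1 and 2 only, set in sequence of 63% and 67.5% A/T. In the PXDN window the same heptamer, CTAATAA, starts at positions 37, 102 and 167 of the window, at equal steps in a tandem repeat. The kept CERKL window, at 73% A/T, has a match of pair 4 and one of pair 3, and none of pairs 1 or 2. Single windows do not stand for their class. In 400 bp, pair 1 stood at 63.0% of the sites and 57.6% of all kept peaks, and pair 4 at 51.0% and 72.4%.

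The 1311 sites were weak in the full-length list, and in each list they ranked under the kept peaks. Fold enrichment here is the pileup over the local background that the peak caller gave for each peak, and it was compared by rank within a list, never between lists. In the full-length list it ran from 2.15 to 9.52 with a median of 5.52, against a list median of 7.32. The median percentile was 18.0 (quartiles 8.41 and 29.8), and 39 of the 1311 sites ranked above the median of the list. The kept peaks had a median percentile of 60.5 and a median fold enrichment of 8.28. The construct lists were longer, with 50537 peaks for dHD and 62856 for N-C1, and a construct peak was part of the rule, so percentiles were not compared between lists. Of the sites, 1214 had a peak in the dHD list, with a median percentile of 58.7 there, against 78.7 for all eligible peaks and 82.6 for kept peaks. In the N-C1 list 1275 had one, with a median percentile of 63.6, against 82.3 and 85.6. Both constructs had a peak at 1178 of the sites, which is 89.9% (95% interval 88.1 to 91.4) against 92.0% (91.5 to 92.4) of kept peaks. N-C1 alone had one at 97 and dHD alone at 36. The sites were also narrow, with a median width of 242 bp against 340 bp for kept peaks. These gaps were smaller at like fold enrichment, between the quartiles of the set at 4.997 and 5.99. There the median widths were 236 bp at the sites and 255 bp at kept peaks. The median percentiles there were 57.6 and 69.9 in the dHD list, and 63.6 and 70.4 in the N-C1 list.

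**Figure D1:**
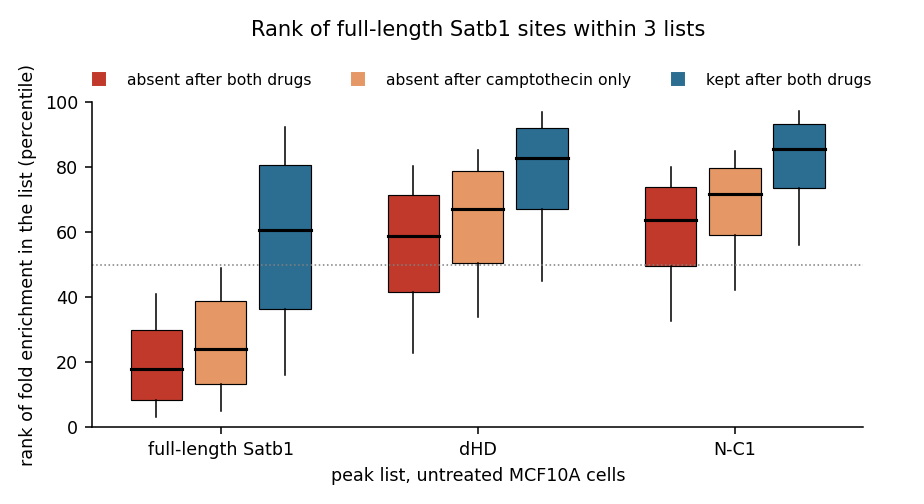
Percentile rank of fold enrichment (vertical axis, 0 to 100) of full-length Satb1 sites within the full-length, dHD and N-C1 lists; boxes span the quartiles with the median as a line, whiskers the 10th to 90th percentile of the sites, and colours the classes. Sites absent after both drugs have a median rank of 18.0 in the full-length list, 58.7 in the dHD list and 63.6 in the N-C1 list, under the kept peaks in each.

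Absence became rarer as the full-length fold enrichment rose. It stood at 19.6% (95% interval 14.5 to 25.6) of the 214 eligible peaks with a fold enrichment under 4 and at 14.3% (13.3 to 15.4) of the 4457 peaks between 5 and 6. Between 8 and 10 it was 0.252% (0.109 to 0.496) of 3173 peaks. Above 10, 0 of 6334 peaks were absent, which allows a share of up to 0.0582%. These shares are a description of the set, since the rule used the same list.

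The strongest site lay in an intron of CHRNA7, which encodes a subunit of a nicotinic acetylcholine receptor (chr15:32375234-32375537). Its fold enrichment was 9.52 in the full-length list (percentile 69.2), 11.99 in the dHD list and 12.1 in the N-C1 list, and the nearest peak after either drug was 13715 bp away. The next, in an intron of NRG3, a neuregulin and so a ligand of ERBB receptors, had 9.38, 10.1 and 16.1 in the same lists, the last at percentile 91.5. A site in an intron of IKZF4, a zinc finger transcription factor of the Ikaros family (chr12:56418198-56418517), had 8.94, 9.44 and 10.6, and lay 3273 bp from the start of that gene. An intergenic site with HAND2 as its nearest start, 363267 bp away (chr4:174814497-174814762), had 8.83, 10.9 and 14.9. A site in an intron of the sialyltransferase gene ST6GAL2 (chr2:107482366-107482668) had 8.42, 9.15 and 10.2.

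At the same full-length fold enrichment of 8.15 stood an intergenic site 26218 bp from the start of SLC16A1, which encodes a monocarboxylate transporter (chr1:113452253-113452538), and an intronic site of MARCHF1, a membrane-bound ubiquitin ligase gene (chr4:164477126-164477398). The former had 10.7 and 11.9 in the dHD and N-C1 lists, the latter 12.6 and 11.2. The eighth, 49469 bp from the start of the AP-1 gene JUN (chr1:59299049-59299342), had 8.06, 6.22 and 7.18. Its dHD value was the lowest of the 8 in that list, at percentile 46.4. A/T content at the 8 sites ran from 57% at the JUN site to 67.5% at the IKZF4 site, all under the mean of the kept peaks.

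The sites lay in sequence poorer in A/T than the kept peaks. Their central 200 bp were 66.4% A/T (95% interval 66.1 to 66.6, SD 5.18, n = 1309), against 72.9% (72.8 to 72.9, SD 4.89, n = 17600) for kept peaks, a difference of -6.50 percentage points (-6.79 to -6.22). The other 2 sites lie on chromosome Y where the reference gives no sequence. Peaks absent after 1 drug were in between, at 69.7% (69.6 to 69.9) for camptothecin only and 68.5% (67.9 to 69.0) for ICRF-193 only. The reference genome as a whole was 59.1% A/T. Over all peaks of a list, the mean was 73.5% after camptothecin, 73.3% after ICRF-193 and 72.4% in the untreated full-length list. The drug lists were thus richer in A/T as a whole, and whether that bears on the gap was not tested. Since the sites were weak, the comparison was repeated among peaks whose fold enrichment fell between the quartiles of the set, 4.997 and 5.99. There 671 sites had 67.0% A/T and 2683 kept peaks 72.9%, a difference of -5.95 points (-6.35 to -5.54). A gap of the same sign stood in each fold-enrichment quartile of the eligible peaks that held sites, at -5.94, -6.99 and -7.27 points from the lowest to the third, the last on 33 sites.

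The flanks differed less than the centres. Between 1000 and 2000 bp from the midpoint, A/T content was 60.1% (59.8 to 60.4) at the sites and 62.7% (62.7 to 62.8) at kept peaks. In 50 bp steps, the A/T content at the sites rose from 60.2% at 150 to 200 bp from the midpoint to 68.5% in the 50 bp next to it, so that the rise was over within about 150 bp. At kept peaks of fold enrichment 4.997 to 5.99 it was still 68.3% at 150 to 200 bp and 67.4% at 200 to 250 bp. There it reached 74.0% next to the midpoint. The sites in this profile were not limited to that range of fold enrichment. The longest uninterrupted A/T run in the central 200 bp averaged 12.3 bases at the sites and 15.5 at kept peaks. TA dinucleotides numbered 21.2 and 26.0, and CpG dinucleotides 1.02 and 0.605.

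**Figure D2:**
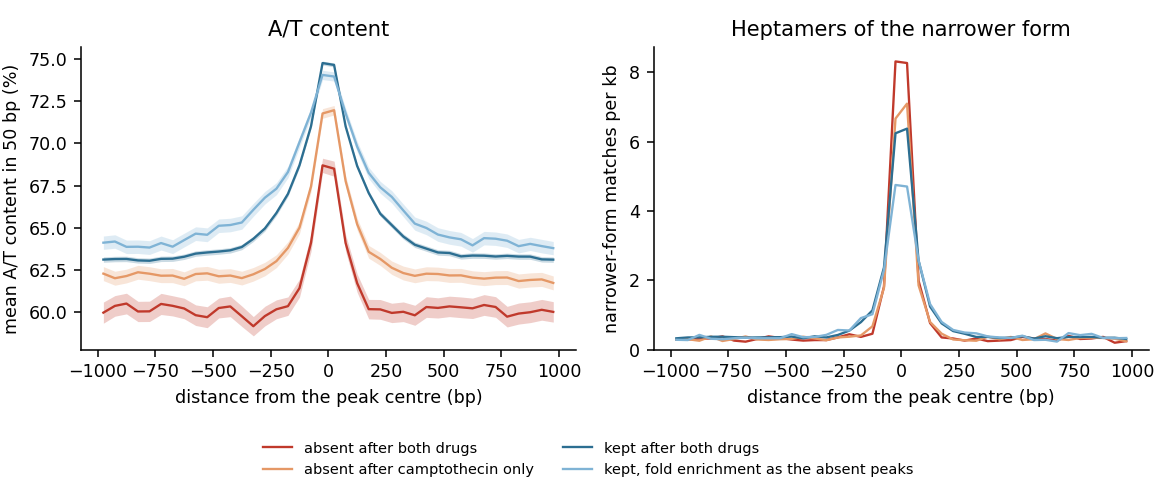
Mean A/T content in 50 bp steps (left, percent, bands show 95% intervals across peaks) and matches to the narrower form of the consensus per kb (right) against distance from the peak centre in bp, for 4 classes of full-length peaks. The sites absent after both drugs, of every fold enrichment, peak at 68.7% A/T and reach 8.32 narrower-form matches per kb at the centre. Kept peaks of fold enrichment 4.997 to 5.99 reach 74.1% and 4.75.

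Read the other way, the share of eligible peaks that were absent after both drugs fell with A/T content. It was 35.5% (30.7 to 40.5) of 383 peaks under 60% A/T, 23.2% (20.97 to 25.5) of 1354 peaks at 60 to 65%, and 10.5% (9.63 to 11.4) of 4819 peaks at 65 to 70%. At 70 to 75% it was 3.62% (3.24 to 4.03) of 8838, and at 75 to 80% it was 0.627% (0.434 to 0.875) of 5426. Of 1103 peaks at 80% or more, 0 were absent, which allows up to 0.334%. Peaks in the lowest quartile by fold enrichment kept this order at higher shares, from 55.8% (47.6 to 63.7) of 156 peaks under 60% A/T to 2.38% (1.6 to 3.40) of 1218 peaks at 75 to 80%. In the second quartile the same classes gave 43.1% (33.4 to 53.3) of 102 and 0.414% (0.135 to 0.963) of 1208.

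**Figure D3:**
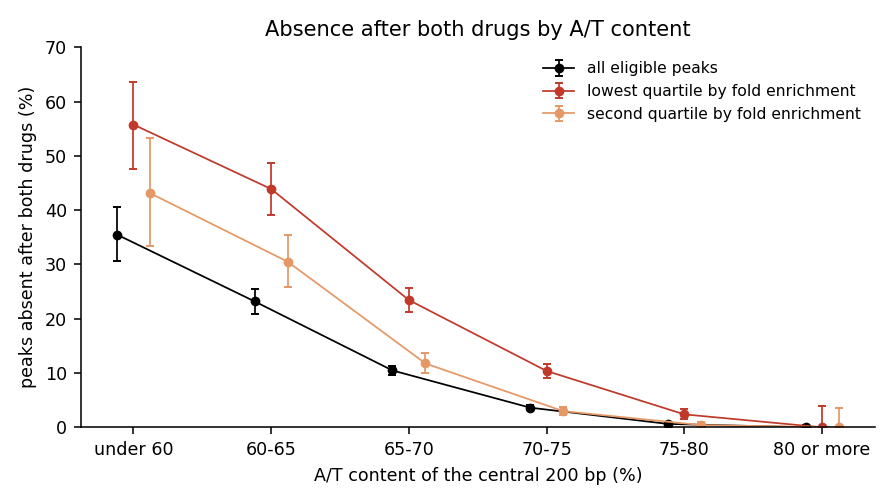
Share of eligible full-length peaks absent after both drugs (vertical axis, percent, bars are exact 95% intervals) by A/T content of the central 200 bp, for all peaks and for the lowest and second quartile by fold enrichment. The share falls from 35.5% under 60% A/T to 0 of 1103 peaks at 80% or more, and from 55.8% to 0 in the lowest quartile.

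Most of the sites carried the consensus, in a different mix of heptamers from that of the kept peaks. In 400 bp at the midpoint, 96.0% of the sites (94.8 to 97.0) had at least 1 match, close to the 97.0% (96.7 to 97.3) of kept peaks. Of all 7146352 consecutive 400 bp windows of hg19 without unknown bases, 25.8% held a match. The sites had 2.12 matches on average (2.06 to 2.17) and kept peaks 2.88 (2.86 to 2.91), against 0.322 per window of the genome. Counts of 1, 2 and 3 matches were found at 311, 506 and 330 sites. Of the sites, 8.403% (6.96 to 10.04) had 4 matches or more, against 27.8% (27.2 to 28.5) of kept peaks. Peaks absent after a single drug were close to the sites, with 4 matches or more at 10.8% (9.67 to 12.03) of those absent after camptothecin only and 9.06% (5.95 to 13.1) of those absent after ICRF-193 only, and means of 2.23 and 2.17 matches. By number, 9.93% (8.90 to 11.03) of eligible peaks with 1 match were absent after both drugs, 5.16% (4.63 to 5.73) of those with 3, and 1.18% (0.660 to 1.93) of those with 5. Of 357 peaks with 7 or more, 0 were absent, which allows up to 1.03%. Peaks with no match went against this order, at 7.32% (5.52 to 9.49) of 710. In the lowest quartile by fold enrichment the fall was flatter. There the shares were 20.1% (17.7 to 22.6) with 1 match, 13.8% (12.2 to 15.6) with 3 and 6.06% (3.17 to 10.3) with 5 or more. With no match it was 15.1% (10.9 to 20.2).

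The lower number came from the heptamers of pairs 3 and 4. The fully A/T heptamers of pair 4 numbered 0.743 per site (0.696 to 0.791) against 1.40 (1.38 to 1.42) per kept peak, and those of pair 3 numbered 0.260 (0.232 to 0.288) against 0.411 (0.400 to 0.422). Pair 1, in turn, numbered 0.837 (0.794 to 0.879) against 0.824 (0.811 to 0.838), and pair 2 numbered 0.277 (0.248 to 0.305) against 0.246 (0.238 to 0.255). For pairs 1 and 2 these intervals overlap.

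Close to the midpoint and at like fold enrichment the order of the totals turned. Within 150 bp, the 671 sites between the quartiles of fold enrichment had 1.75 matches and the 2683 kept peaks in that range 1.59, a difference of 0.157 (0.0821 to 0.233). Over 400 bp the same peaks gave 2.13 and 2.49, a difference of -0.357 (-0.444 to -0.271). Pair 1 in 150 bp numbered 0.692 at the sites and 0.464 at kept peaks, a difference of 0.228 (0.169 to 0.287), and pair 2 numbered 0.241 and 0.132, a difference of 0.109 (0.0702 to 0.148). Pair 4 was fewer at the sites, with 0.618 against 0.773, a difference of -0.154 (-0.222 to -0.0867), and the difference of pair 3 was -0.0254 (-0.0644 to 0.0136), an interval that includes 0. At least 1 heptamer of the narrower form stood in the central 150 bp of 67.1% (63.4 to 70.6) of these sites and of 49.0% (47.1 to 50.9) of these kept peaks. The match nearest to the summit lay at a median of 11 bp at the sites with a match and at 11 bp at kept peaks, over peaks of every fold enrichment. Between the quartiles of fold enrichment the medians were 12 bp at the sites and 16 bp at kept peaks.

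**Figure D4:**
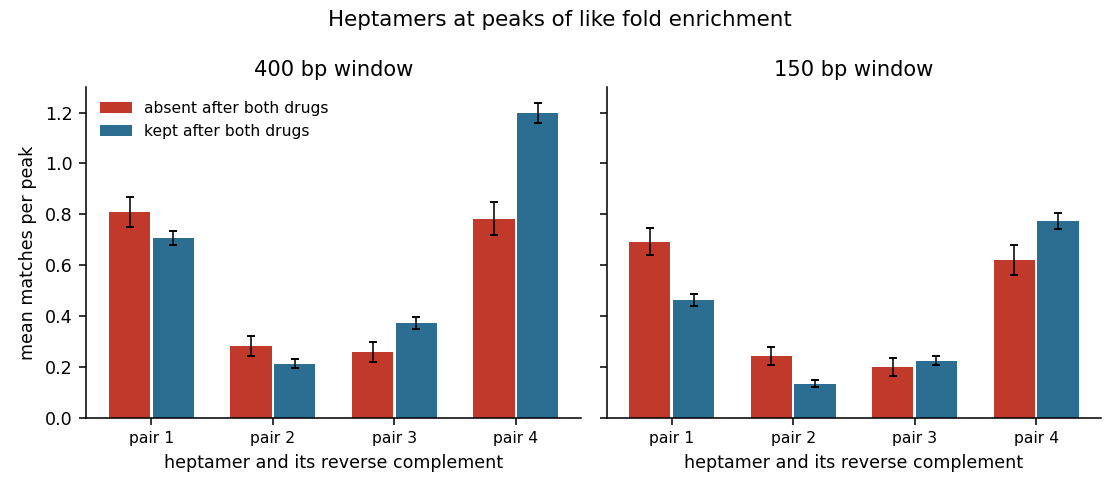
Mean matches per peak (vertical axis, bars from 0, error bars are 95% intervals across peaks) of the 4 heptamer pairs in 400 bp (left) and 150 bp (right), for 671 sites absent after both drugs and 2683 kept peaks in the same range of fold enrichment. In 150 bp, pairs 1 and 2 are more frequent at the absent sites (0.692 against 0.464 and 0.241 against 0.132), and pair 4 is less frequent (0.618 against 0.773).

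The largest number of matches at a site, 6 in 400 bp, was in an intron of PXDN, which encodes a peroxidase of the extracellular matrix (chr2:1710266-1710916). Its repeated heptamer is printed above. That site had a fold enrichment of 3.65 in the full-length list and 3.23 in the N-C1 list, both under percentile 1, and 9.47 (percentile 76.4) in the dHD list. It overlapped ATAC peaks of native and of Satb1-expressing cells, of fold enrichment 22.8 and 13.5. The search for other places in the genome left out hits close to the window itself. Copies within this tandem repeat were thus not counted, and the certainty of read positions there was not assessed. Intergenic sites on chromosome 4 nearest to ARAP2 (chr4:35690087-35690388) and TRAM1L1 (chr4:118342009-118342263) followed with 5 matches each. Their full-length fold enrichment was 6.64 and 5.96, and the second had all 5 within the central 150 bp. Of the 52 sites with no match, the strongest lay 94883 bp from the start of PRRX1, a homeobox gene (chr1:170728006-170728261), with 7.73 in the full-length list, 10.3 in the dHD list and 7.495 in the N-C1 list. The second lay in an intron of SYTL2, which encodes a synaptotagmin-like protein (chr11:85506076-85506348), with 7.46, 9.72 and 7.95. Absence of a match says only that these letters were not in the 400 bp read.

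The sites lay mostly outside ATAC peaks, as did the kept peaks. An ATAC peak of native cells overlapped 58 of the 1311 sites, 4.42% (3.38 to 5.68), against 3.41% (3.14 to 3.69) of kept peaks, and these intervals overlap. In cells expressing Satb1 it was 82 sites, 6.25% (5.01 to 7.70), against 4.55% (4.24 to 4.87). Native ATAC peaks covered 5.76% of the sequenced bases of hg19 and those of Satb1-expressing cells 8.95%. These are shares of bases, unlike the shares of sites, which count an overlap of 1 bp or more. With the summit inside an ATAC peak, the shares of the sites were 2.52% in native and 4.81% in Satb1-expressing cells. Both ATAC lists covered 44 of the sites, the native list alone 14 and the Satb1 list alone 38. At like fold enrichment the native shares were 3.13% (1.95 to 4.74) of the sites and 2.16% (1.65 to 2.79) of kept peaks, and the shares in Satb1-expressing cells were 4.92% (3.41 to 6.84) and 2.80% (2.20 to 3.49). The nearest native ATAC peak was a median of 7212 bp from the sites and 8409 bp from kept peaks.

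Among sites in native open chromatin, the one in the MARCHF1 intron described above was the strongest, in an ATAC peak of fold enrichment 2.89. An intergenic site nearest to SLCO4A1 (chr20:61174505-61174789) followed with a full-length fold enrichment of 7.48 and ATAC peaks of 2.87 in native and 2.27 in Satb1-expressing cells. A site in an intron of GALNTL6 (chr4:172954936-172955204) had 6.78 in the full-length list and a native ATAC peak of 3.48. The fourth lay in an intron of CDH1, the E-cadherin gene of epithelial cells (chr16:68774439-68774766), 3362 bp from a start of that gene. It had 6.53 in the full-length list, 8.47 in the dHD list and 7.71 in the N-C1 list, with ATAC peaks of 2.41 in native and 7.72 in Satb1-expressing cells. It was the only Satb1 peak of the 21938 with its summit in CDH1. ATAC fold enrichment was not compared between the lists.

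By annotation, 59.3% (56.6 to 61.9) of the sites were intergenic with respect to protein-coding genes, 38.7% (36.1 to 41.4) intronic and 0.915% (0.474 to 1.59) exonic. The corresponding shares of kept peaks were 61.4% (60.7 to 62.1), 37% (36.3 to 37.7) and 1.10% (0.947 to 1.26). Promoters, from 1000 bp before to 100 bp after a protein-coding start, held 14 sites or 1.07% (0.585 to 1.79), against 0.517% (0.416 to 0.634) of kept peaks. Within 5000 bp of a start lay 7.25% (5.90 to 8.79) of the sites and 5.54% (5.20 to 5.88) of kept peaks.

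The strongest promoter site belonged to OOSP1, an oocyte-secreted protein gene (chr11:59704756-59705079, 980 bp from the start), with 7.48 in the full-length list, 8.02 in the dHD list and 11.1 in the N-C1 list. A site 60 bp from a start of the zinc finger gene ZNF383 (chr19:37718226-37718531) had 6.41, 5.58 and 8.30, in sequence of 56% A/T. Sites at PDC, which encodes phosducin of photoreceptors (6.23, chr1:186430262-186430559), at the membrane protein gene MS4A6A (5.82, chr11:59949497-59949735) and at TYR, the tyrosinase of pigment cells (5.68, chr11:88910690-88910923), were in no ATAC peak. Those at the translation factor gene EIF2A (5.41, chr3:150284828-150285088) and at the non-classical MHC class I gene HLA-E (5.32, chr6:30456550-30456780) were in none either, and the HLA-E site had no dHD peak. Of the 14 promoter sites, 2 overlapped a native ATAC peak, at OR2T3 and TMEM116, and the share for kept promoter peaks was not computed. The TMEM116 site (5.13, chr12:112444128-112444403) lay in ATAC peaks of 12.8 in native and 9.31 in Satb1-expressing cells. The olfactory receptor genes OR2T3 (6.50, chr1:248636047-248636326) and OR2T34 (5.47, chr1:248738440-248738682) each had a promoter site with no match. The central 200 bp of each has another place in the genome at 99.0% identity, so reads of these sites are uncertain in position. Coding exons held 2 sites, in MGAM2 (5.27, chr7:141920597-141920835) and FEM1C (4.997, chr5:114860857-114861130).

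The sites, 5.98% of the eligible peaks, were spread over many genes. Of 4066 protein-coding genes with an eligible peak in their span, 517 held a site, 469 of them 1 and 41 of them 2. The most in 1 gene was 3, found in 7 genes. These were TOX (3 of its 5 peaks), MYO3B (3 of 6), PTH2R (3 of 7), ADGRB3 (3 of 11), LSAMP (3 of 18), GALNTL6 (3 of 19) and ZFPM2 (3 of 32). TOX, which encodes a nuclear protein of developing T cells, spans 314 kb, MYO3B 477 kb, and LSAMP, a neural cell adhesion gene, 1337 kb. Within 10000 bp of another site lay 26 of the 1311. The number for other sets of eligible peaks of that size was not computed, so neither count is a trait of the sites.

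By gene list, 38 very long neuronal and fragile-site genes held 680 eligible peaks, of which 25 were absent after both drugs, 3.68% (2.39 to 5.38) against 5.98% over all eligible peaks. They fell in 17 of the 38 genes, among them CNTNAP2, MACROD2 and TENM2 with 2 each, and LSAMP and GALNTL6 with 3 each. The ERBB receptor and neuregulin genes held 51 peaks, of which 4 were absent, 7.84% (2.18 to 18.9), with 2 in ERBB4 and 2 in NRG3. Genes of the epithelial to mesenchymal transition held 8 peaks, of which the CDH1 site was the only one absent, 12.5% (0.316 to 52.7). The intervals of this list and of the ERBB and neuregulin list both hold the 5.98% over all eligible peaks. Topoisomerase and strand-break repair genes held 8 peaks, basal mammary genes 6 and genes of chromatin architecture 17, and 0 of each were absent, which allows up to 36.9%, 45.9% and 19.5%.

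The share of absent peaks differed between chromosomes. Chromosome 19 had 18.6% (12.5 to 26.0) of its 140 eligible peaks in the set, chromosome 22 had 15.1% (8.88 to 23.4) of 106, chromosome 20 had 12.7% (8.98 to 17.3) of 267 and chromosome 17 had 8.60% (5.59 to 12.5) of 279. At the other end stood chromosome 13 with 3.90% (2.85 to 5.21) of 1127 and chromosome 4 with 4.24% (3.37 to 5.26) of 1863. Across 23 chromosomes, without Y, the share fell with the mean A/T content of the peaks' flanks (Spearman's rho = -0.800, Pearson's r = -0.924) and rose with protein-coding genes per Mb (rho = 0.698, r = 0.781). These are descriptions across chromosomes that share the same libraries. Chromosomes 17, 19, 20 and 22 together, chosen after their values were seen, had 12.6% (10.4 to 15.1) of 792 peaks absent, and the others 5.73% (5.42 to 6.05) of 21146. At 65 to 70% A/T the shares were 17.8% (12.7 to 23.8) of 197 and 10.2% (9.31 to 11.1) of 4622, and under 65% they were 38.9% (30.3 to 48.0) of 126 and 24.9% (22.8 to 27.1) of 1611. At 70 to 75% they were 5.57% (3.22 to 8.90) and 3.56% (3.17 to 3.97), with overlapping intervals.

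**Figure D5:**
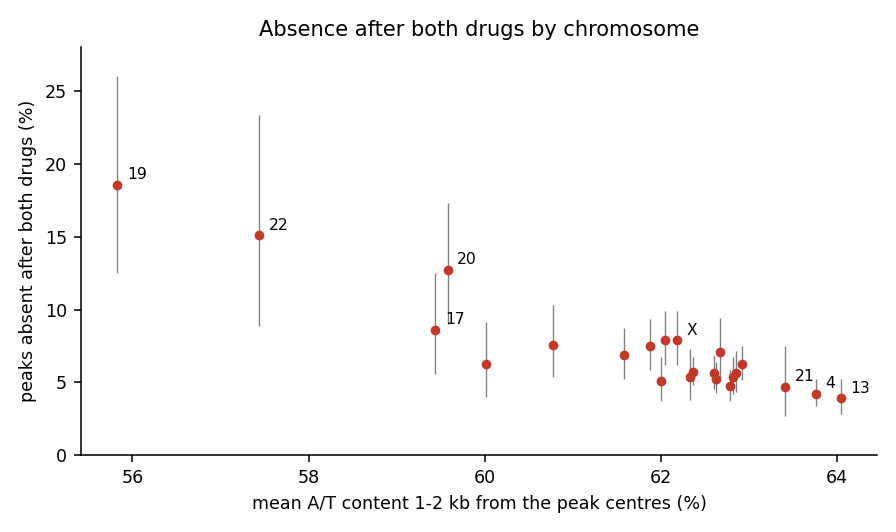
Share of eligible full-length peaks absent after both drugs (vertical axis, percent, bars are exact 95% intervals) for 23 chromosomes against the mean A/T content 1 to 2 kb from their peak centres (percent). Chromosomes 19, 22 and 20 stand highest at 18.6%, 15.1% and 12.7%, and chromosome 13, richest in A/T, lowest at 3.90%.

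The rule left out any overlap with a drug peak, so each site lay at some distance from the nearest one. The median distance to the nearest drug peak was 28263 bp, 299 sites had one within 10000 bp and 55 within 1000 bp. For scale, the next full-length peak lay at a median of 31000 bp, summit to summit, over all eligible peaks. The 3 sites just inside the rule lay 66, 76 and 78 bp from a drug peak. They were intergenic, nearest to ABCB5 (chr7:20564290-20564521, fold enrichment 6.09), CWH43 (chr4:49250689-49250907, 3.30) and TMEFF2 (chr2:194471654-194471886, 5.41), and the CWH43 window has 6 other places in the genome at 95% identity or more. The 3 eligible peaks just outside overlapped a drug peak by 58, 93 and 97 bp, with fold enrichments of 3.87, 4.04 and 5.41. They lay nearest to PPIAL4G and ZWINT and in an intron of SQLE, the squalene epoxidase gene. The PPIAL4G window has 5 other places in the genome. Of all sites with sequence, 4.97% (3.85 to 6.29) had another such place, against 5.66% (5.32 to 6.01) of kept peaks. Full-length peaks lay farther apart around the sites, with the next one at a median of 45774 bp, against 29567 bp for kept peaks.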

How the data were processed

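Peak lists of 5 Satb1 ChIP-seq and 2 ATAC-seq samples of MCF10A, of 20 samples in the series, were used. The authors removed adapters with cutadapt, mapped reads to hg19 with Bowtie2, and used MACS2 for the peak calls, which set ChIP-seq against input DNA and were broad for ATAC-seq. Duplicates were made, and whether a list pools them is not given in the sources used here. In the deposited files, fold enrichment is the authors' ratio of pileup to local background. The p-value and the q-value of each peak are deposited on a −log10 scale, as MACS2 gave them, the score derives from the q-value and was not used, and the summit is deposited as an offset in bp. The full-length list holds peaks down to a −log10 q of 1.45. The study gives a range of reads for its ChIP-seq libraries, but not the depth behind each list.

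Overlaps needed 1 bp. Matches were counted in 400 bp, or 150 bp where stated, and A/T content in 200 bp, both at the peak midpoint, overlapping matches included. Genes came from GENCODE annotation lifted to GRCh37, with classes taken at the summit in the order promoter, exon, intron, intergenic. Other places in the genome were sought with BLAST at 95% identity over 90% of 200 bp. With 1 list per condition no test was run, and 95% intervals are Clopper-Pearson for shares and normal for means. Named were the 8 strongest sites, the 3 with most matches, the 2 strongest with none, up to 12 at promoters or in coding exons, the 3 nearest to a drug peak and 3 just outside, genes with at least 3 sites, the 4 strongest in native ATAC peaks, and genes of the lists that hold a site. Of the items this rule names, 1 gene and the sequence of 1 site are not reported here. Members, gene lists and markers were chosen with earlier results of these data known. Alternatives covered the overlap rule, thresholds, windows, consensus, ATAC criterion and annotation.

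On simulated data, 0 of 10570 overlapping pairs and 0 of 1500 distances differed from direct computation, 0 of 831 planted heptamers were missed or added, and 95.4% of simulated shares fell inside their interval. The tools were Python 3.11.15, numpy 2.4.6, pandas 2.3.3, scipy 1.17.1, pysam 0.24.0, matplotlib 3.10.9, bedtools 2.31.1, samtools 1.23.1 and BLAST 2.17.0.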

Additional observations from a re-analysis of the deposited data

How the results depend on the processing

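Of 75 alternative values, 41 stayed close to the value reported, which means within its interval or, for the number of sites, within 1.5 times of it, 33 moved beyond that and 1 reversed. The number of sites ran from 960 with full-length peaks of fold enrichment 5 or more to 1647 with a reciprocal overlap of 50% among the 7 alternatives that stayed close. The reversal is the difference in matches between the sites and the kept peaks, -0.768 over 400 bp, which became -0.357 at like fold enrichment, -0.264 in 150 bp, and 0.157 with both restrictions. The last of these and the 150 bp window were chosen after seeing the data.

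Membership moved with the threshold of the drug lists: counting only drug peaks of fold enrichment 5 or more gave 2303 sites in place of 1311, with 94.3% holding a match, 67.1% A/T and 6.47% in native ATAC peaks. A reciprocal overlap of 50% gave 94.8% with a match and 67.7% A/T, and requiring both constructs 66.0% A/T. The median fold enrichment rose to 5.74 with full-length peaks of at least 5 and to 5.68 with a −log10 q of at least 5. The share with a match was 93.4% in 200 bp, 90.9% in 150 bp and 74.4% with the narrower consensus, and the mean number of matches 1.86, 1.73 and 1.11. A/T content was 68.6% in 100 bp and 63.6% in 400 bp. With the summit inside the ATAC peak, 50% coverage or a −log10 q of at least 5, the native ATAC share was 2.52%, 2.67% and 2.21%, and that of Satb1-expressing cells 4.81%, 4.58% and 3.74%. A promoter of 2000 bp on either side gave 3.36%, and transcripts of every type 4.42% at promoters and 56.4% in introns.

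The A/T difference of -6.50 points was negative in all alternatives run. It was -5.95 at like fold enrichment. The alternatives added after seeing the data gave -5.94, -6.99 and -7.27 in the 3 lower quartile groups by fold enrichment, and -3.38 against peaks absent after camptothecin only. No paired analysis was possible because each condition had 1 list and no replicate number. Absence from a list is no measure of lost binding, and the depth of each list, not given per list, limits every count of absent sites.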
